A study of Mus musculus with 163 samples.

Results

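The genes described here are the ligands and receptors of axon guidance: the ephrins and Eph receptors, the semaphorins with their plexin and neuropilin receptors, the Slits and Robos, and the netrins with Dcc and the Unc5 family. They were taken by symbol alone, as every protein-coding gene of these families in the deposited count table. No measured value decided which gene of a family was kept, but the set was chosen with earlier results of these data known. The rule gave 73 genes of 55291 in the table, 21872 of which are protein-coding. They are 8 ephrins, 14 Eph receptors, 20 semaphorins, 9 plexins, 2 neuropilins, 3 Slits, 4 Robos, 6 netrins and 7 genes named Dcc or Unc5. The last set includes Unc50, a Golgi membrane protein that the symbol rule caught by name only, and Unc5cl, a death-domain protein related to the Unc5 receptors. The levels were read in 163 single hair cells of the mouse cochlea at postnatal day 7 (P7). Control cells (Ctrl) came from animals with the genotype Atoh1P2A-Tdtomato/+, in which a red fluorescent protein is made from 1 allele of the hair cell gene Atoh1. Mutant cells (Exp) came from Atoh1P2A-Cre/P2A-Tdtomato; Rbm24flox/flox animals, in which the Cre recombinase made from the other Atoh1 allele deletes Rbm24, a gene for an RNA-binding protein, in hair cells. All groups therefore carried the Tdtomato allele, while Cre and the modification of the second Atoh1 allele differed between genotypes together with Rbm24. Controls gave 43 outer hair cells (Ctrl OHC) and 38 inner hair cells (Ctrl IHC). Mutants gave 56 outer (Exp OHC) and 26 inner hair cells (Exp IHC). Fluorescent cells were picked by hand after enzymatic digestion of the cochlea, and how each was assigned to a type is not given in the sources used here; the protocol also uses the term iOHC, which the group labels do not. No label names the animal of a cell. Each group is therefore 1 sample, cells are not replicates, and no test or p-value is given.

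Guidance cues are proteins that steer growing axons and migrating cells by attraction or repulsion. Ephrins are held on the membrane of the sending cell, ephrin-A by a lipid anchor and ephrin-B by a transmembrane segment, and they bind Eph receptor tyrosine kinases on the neighbouring cell, with signals that can run in either direction. Class 3 semaphorins are secreted and mostly act through a neuropilin bound to a plexin, whereas most other semaphorins are membrane proteins that bind plexins directly. Slits are secreted ligands of Robo receptors, and netrins attract through Dcc and repel through the Unc5 receptors. In the cochlea these systems are known for shaping the innervation by spiral ganglion neurons: Eph signalling sorts their processes, and Sema3f acting on neuropilin 2 keeps the type I fibres near the inner hair cells. Hair cells have no axon of their own, but they are the target that these fibres reach.

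Efna5 and Robo2, high in OHCs, and Plxnd1 and Epha7, high in IHCs, are shown with the 250 bases before their start, because they divide the cell types in the results that follow and because these windows lie outside every annotated exon. They were chosen after their values were seen. The sequences are from RefSeq on GRCm38.p6, written 5′ to 3′ on the gene's strand. Capitals mark CANNTG, the E-box core bound by basic helix-loop-helix factors such as Atoh1, which reads the same on both strands.
Efna5 (chr17:62881318-62881567, minus strand): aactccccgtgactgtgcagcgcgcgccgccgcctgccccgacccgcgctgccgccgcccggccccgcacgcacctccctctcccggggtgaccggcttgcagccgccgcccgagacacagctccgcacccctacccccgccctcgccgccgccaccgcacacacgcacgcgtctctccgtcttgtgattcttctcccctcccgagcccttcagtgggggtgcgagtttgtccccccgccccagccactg
Robo2 (chr16:74411826-74412075, minus strand): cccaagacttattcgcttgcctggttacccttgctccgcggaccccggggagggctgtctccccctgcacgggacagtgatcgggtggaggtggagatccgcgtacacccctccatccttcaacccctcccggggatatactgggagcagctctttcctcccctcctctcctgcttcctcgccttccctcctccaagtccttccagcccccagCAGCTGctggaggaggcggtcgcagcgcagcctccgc
Plxnd1 (chr6:115995006-115995255, minus strand): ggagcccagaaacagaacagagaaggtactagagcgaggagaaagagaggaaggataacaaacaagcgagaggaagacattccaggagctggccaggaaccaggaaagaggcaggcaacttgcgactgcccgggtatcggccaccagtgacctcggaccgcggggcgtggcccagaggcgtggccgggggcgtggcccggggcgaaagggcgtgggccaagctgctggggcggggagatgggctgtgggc
Epha7 (chr4:28812881-28813130, plus strand): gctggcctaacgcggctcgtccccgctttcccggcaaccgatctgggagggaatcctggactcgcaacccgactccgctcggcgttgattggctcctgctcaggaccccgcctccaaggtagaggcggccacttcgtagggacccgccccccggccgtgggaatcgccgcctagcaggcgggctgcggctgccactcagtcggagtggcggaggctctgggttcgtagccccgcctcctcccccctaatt
Robo2 held 1 such match, which had the form CAGCTG, and the other 3 windows held none. Of 32817 windows of the same length, 66.2% held CANNTG and 13.0% held CAGCTG, which is one form of it. A window was found for 63 of the 73 genes. A match is a description of the letters and not of a bound site, and a window without one says nothing of the factor.

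The deposited values are raw read counts. The counts of all cells in a group were added up and expressed per 1000000 counts of that group (CPM). A gene was called measured in a comparison at a mean of 1 CPM or more over both groups, and counted as higher or lower at a difference of at least 2-fold. A gene near 0 in 1 group could pass this filter only through the other, and its call was then fixed by the filter. The same limit lies in the shares of all genes. A cell was counted as having a gene at 10 CPM or more in that cell. Ratios are log2 of CPM, given with an exact conditional binomial 95% interval in square brackets, which covers counting error only, since reads that carry no molecular identifier do not each stand for a molecule, and the spread between animals is not in it. Where a group had 0 counts, the ratio is a bound against a floor of 3 counts over that group. Levels are compared between genes only per kilobase of exon. The limit of 10 CPM in a cell was not set by length, so shares of cells compared between genes favour long ones.

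Total counts per cell ranged from 5467115 to 18072166, with medians of 9.09e+06 in Ctrl OHCs, 8.67e+06 in Ctrl IHCs, 1.28e+07 in Exp OHCs and 1.42e+07 in Exp IHCs. Rbm24 itself was at 78.8 CPM or more in every control cell and at a median of 0.0905 CPM in Exp OHCs and 0.129 in Exp IHCs, with highest cells at 2.43 and 15.6 CPM. The OHC marker Slc26a5 (prestin) was at 376 CPM in Ctrl OHCs and 0.640 in Ctrl IHCs, and 2 Ctrl OHCs were under 10 CPM. In Exp OHCs it was at 27.5 CPM, and 6 of 8 OHC markers were at least 2-fold lower in mutant OHCs (median -2.50), among them Ocm at 4951 CPM in Ctrl and 18.6 in Exp OHCs. In IHCs, 2 of 7 measured OHC markers were lower and 0 higher. Of the IHC markers, 6 of 7 measured were lower and 1 higher in mutant OHCs (median -2.48). In mutant IHCs, 2 of 8 IHC markers were lower and 0 higher (median -0.86). Summed supporting cell markers had a median of 30.2, 1.73, 8.51 and 2.26 CPM per cell in Ctrl OHCs, Ctrl IHCs, Exp OHCs and Exp IHCs, and reached 100 CPM in 10, 7, 7 and 0 cells. The neuron list had medians of 271, 601, 758 and 1305 CPM, mainly from Nefl, Nefm and Isl1, which hair cells also express. Of its 7 measured members, 5 were at least 2-fold higher and 0 lower in mutant OHCs (median 2.17), and 2 (Nefm and Elavl3) were higher and 1 (Tubb3) lower of 7 in mutant IHCs. From Ctrl to Exp OHCs, Thy1 was at 0 and 15.8 CPM, Stmn2 at 0.218 and 12.1, and Ntrk2 at 0.0125 and 11.6, while Tubb3 was under 1 CPM in both and Prph and Scn9a had 0 counts in every cell. Summed mesenchyme markers, mostly Otos, had medians of 207, 175, 35.4 and 24.7 CPM. The median cell of each group had 0 CPM of the glia, endothelial, immune and erythroid lists. Cells that held transcripts of Y-linked genes but none of Xist, called male here, made up 74.4% of OHCs and 68.4% of IHCs in controls (32 and 26 cells), against 28.6% and 26.9% in mutants (16 and 7 cells). Ratios within male and within female cells (Xist without Y-linked transcripts) are therefore given beside many of the results. Female cells numbered 10 in Ctrl OHCs, 12 in Ctrl IHCs, 37 in Exp OHCs and 19 in Exp IHCs. With so few cells, a very large ratio can come from a level near 0 in 1 group, and its size is then not a measured fold. The part of the marker differences in the results was not tested.

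Most of the families were present in P7 hair cells, at low levels. Of the 73 genes, 59 reached 1 CPM in at least 1 group, 29 reached it in all 4 groups, and 6 reached 100 CPM in at least 1. The number at 1 CPM or more was 46 in Ctrl OHCs, 40 in Ctrl IHCs, 47 in Exp OHCs and 48 in Exp IHCs. Only 11, 7, 16 and 10 of them, in the same order, were present in at least 50% of the cells of the group. The other 14 genes stayed under 1 CPM everywhere: the netrin receptor Dcc, Epha6, Epha10, Nrp1, Ntn5, Plxnc1, Robo3, Robo4, Sema3d, Sema3g, Sema5a, Slit1, Slit2 and Unc5d. Epha6, Ntn5, Robo4 and Sema3g had 0 counts in all 163 cells. Dcc was highest in Ctrl IHCs, at 0.680 CPM, all from 1 cell. Averaged over the 4 groups and set per kilobase of exon, the order from the top was Unc50 at 79.5 CPM per kb, Efna5 at 39.1, Sema5b at 37.1, Epha4 at 15.8, Sema6b at 8.68, Nrp2 at 8.08, Plxnb2 at 5.93, Unc5a at 5.44, Ephb1 at 5.19 and Epha1 at 4.71. Groups differ in this order, since Efna5 alone ranged from 0.0320 CPM per kb in Ctrl IHCs to 118 in Exp OHCs, whereas Sema5b ranged only from 27.9 in Ctrl OHCs to 45.7 in Exp IHCs.

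**Figure D1:**
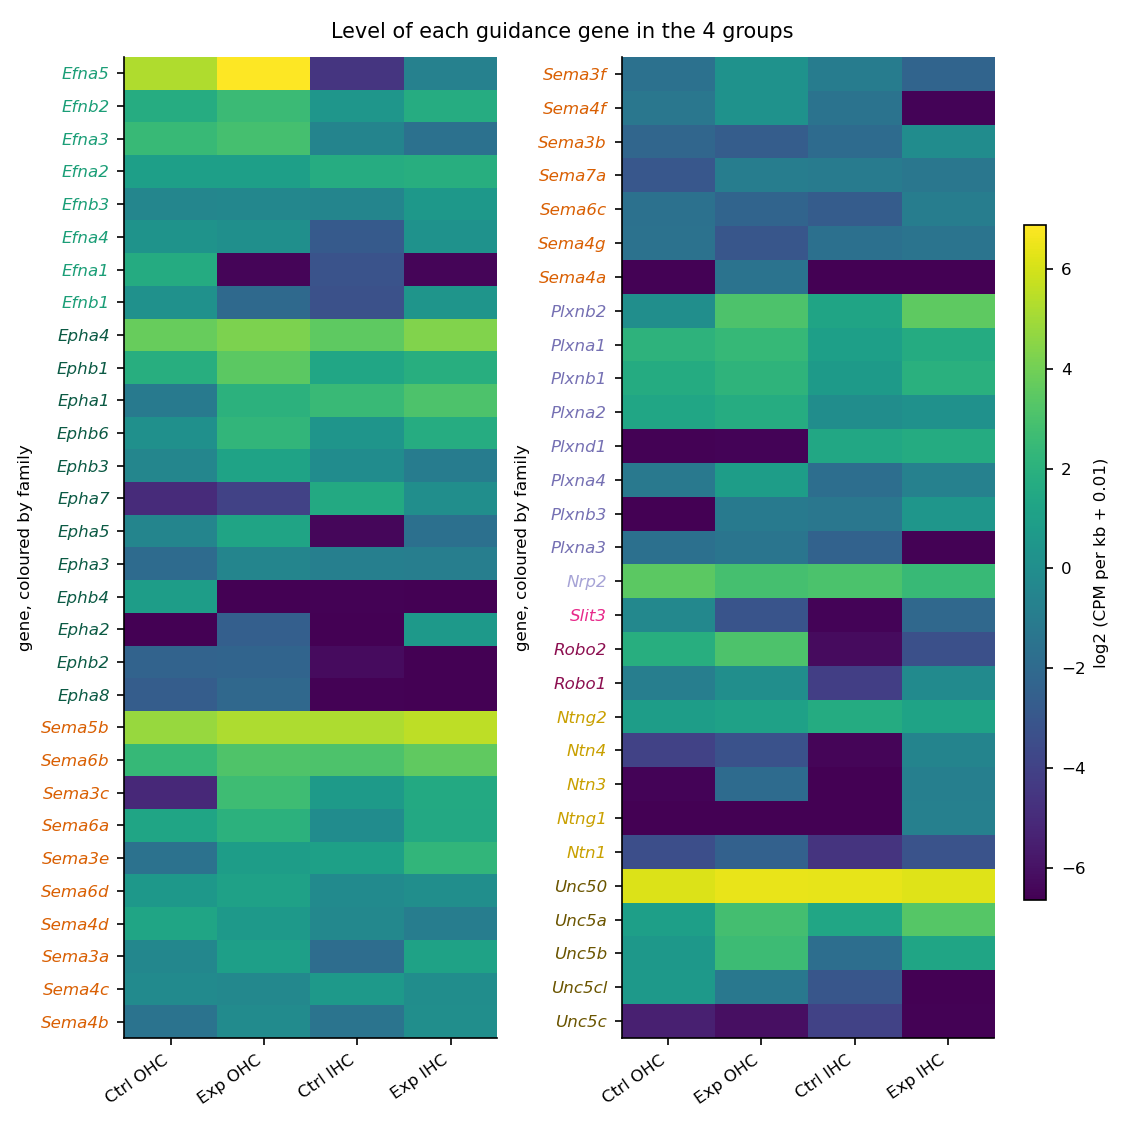
Levels of the 59 genes that reached 1 CPM in at least 1 group, as log2 of CPM per kilobase of exon with 0.01 added, with genes in rows by family and the 4 groups in columns. Efna5 and Robo2 are high in both OHC groups and low in IHCs, Plxnd1 is the reverse, and Sema5b, Epha4 and Nrp2 are high in all 4 groups.

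In controls, the ephrins were the family with the largest median difference between cell types among families of 5 or more measured genes. Of 50 guidance genes measured, 20 were at least 2-fold higher in Ctrl OHCs than in Ctrl IHCs and 8 were lower, that is 40.0% and 16.0%, where 15.3% and 13.4% of all 14445 genes measured were. Their median log2 ratio was 0.47 against 0.04 for all genes. Efna1, Efna4, Efna5, Efnb1, Epha5, Ephb2, Ephb4, Robo2, Slit3 and Unc5cl passed the filter only through OHCs, so they could only count as higher. Epha7, Plxnb3, Plxnd1 and Sema3c passed it only through IHCs and could only count as lower. All 8 ephrins were measured, and 6 were higher in OHCs and none lower, with a median of 3.10. Both measured Robos, Robo1 and Robo2, were higher in OHCs. The Eph receptors split evenly, with 3 higher and 3 lower of 10, and of 8 plexins 2 were higher and 3 lower. Of the 20 higher, 12 stayed at least 2-fold higher under every alternative tried other than the filters on level (Efna1, Efna3, Efna5, Efnb1, Efnb2, Epha5, Ephb4, Robo1, Robo2, Sema3a, Unc5b and Unc5cl), as did 5 of the 8 lower (Epha1, Epha7, Plxnd1, Sema3c and Sema3e). The same count was not made over all genes, so whether guidance genes stayed more or less often than others is not known.

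**Figure D2:**
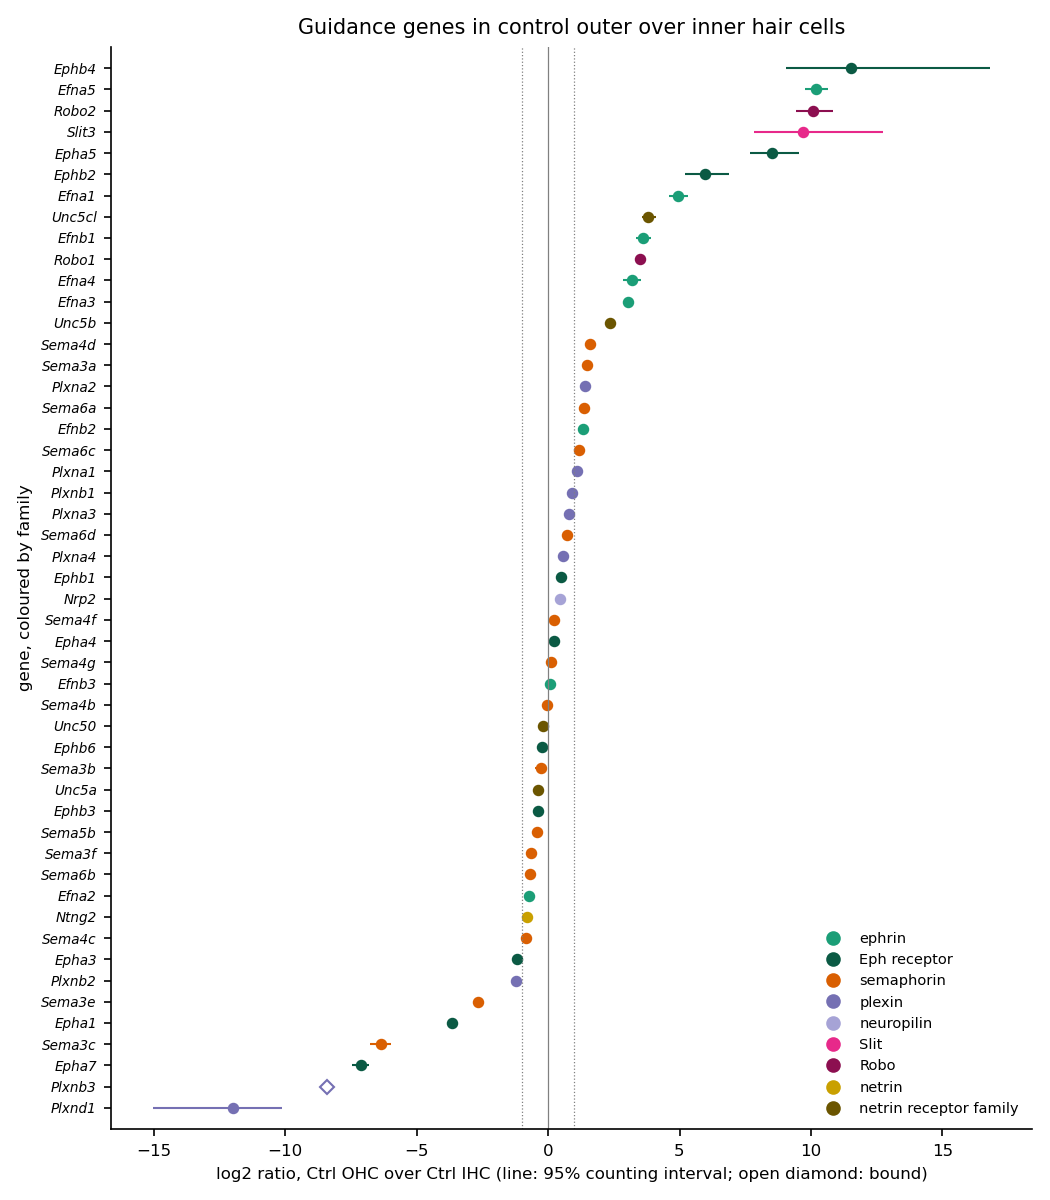
Log2 ratio of CPM in Ctrl OHCs over Ctrl IHCs for the 50 genes measured, with the 95% counting interval, dotted lines at 2-fold and an open diamond for a bound. Robo2, Efna5 and Ephb4 lie above 10 on the log2 scale on the OHC side, and Plxnd1 lies furthest on the IHC side.

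In the mutants, more guidance genes were higher than lower in both cell types. In OHCs, 48 were measured, and 20 were at least 2-fold higher in Exp than in Ctrl and 6 lower, that is 41.7% and 12.5%, where 18.4% and 13.1% of all 14588 genes were. The median log2 ratio was 0.62, against 0.06 for all genes. In IHCs, 24 of 47 were higher and 3 lower, that is 51.1% and 6.38%, where 18.8% and 11.7% of all 14557 genes were, with a median of 1.06 against 0.11. Some of these calls were fixed by the filter. In IHCs, Efna4, Efna5, Efnb1, Epha2, Epha5, Ntn3, Ntn4 and Ntng1 passed it only through Exp cells, and none of the lower genes only through Ctrl cells. In OHCs, Plxnb3, Sema3c and Sema7a passed it only through Exp cells, and Efna1, Ephb4 and Slit3 only through Ctrl cells. The Eph receptors in OHCs (6 higher and 1 lower of 9, median 1.67) and the ephrins in IHCs (5 higher and 1 lower of 7, median 1.31) had the largest medians among families of 5 or more measured genes. The 2 genotype comparisons share no cells, and 11 genes were higher in both: Efna5, Epha5, Ephb6, Plxna4, Plxnb2, Plxnb3, Sema3a, Sema3e, Sema4b, Unc5a and Unc5b. These are 55.0% of the genes higher in OHCs and 45.8% of those higher in IHCs, where over all genes 1050 were higher in both, which is 39.1% and 38.4% of the corresponding lists. Of the higher genes, 8 of the 20 in OHCs (Efna5, Epha1, Plxna4, Plxnb2, Sema3c, Sema3e, Sema3f and Unc5b) and 8 of the 24 in IHCs (Efnb2, Epha5, Plxnb2, Plxnb3, Robo1, Sema3a, Sema4b and Unc5a) stayed at least 2-fold higher under every alternative tried other than the filters on level, and Plxnb2 is the one in both sets. Of the lower genes, 4 of 6 did so in OHCs (Efna1, Efnb1, Ephb4 and Unc5cl) and 0 of 3 in IHCs. Here too, how many of all genes would stay past 2-fold was not counted.

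Mutant OHCs and mutant IHCs, compared with each other, used the same cells as the genotype comparisons. Of 52 genes measured, 16 were higher in Exp OHCs and 14 lower, that is 30.8% and 26.9%, where 14.0% and 14.5% of all 14769 genes were. The median was 0.05, against 0.47 in controls.

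**Figure D3:**
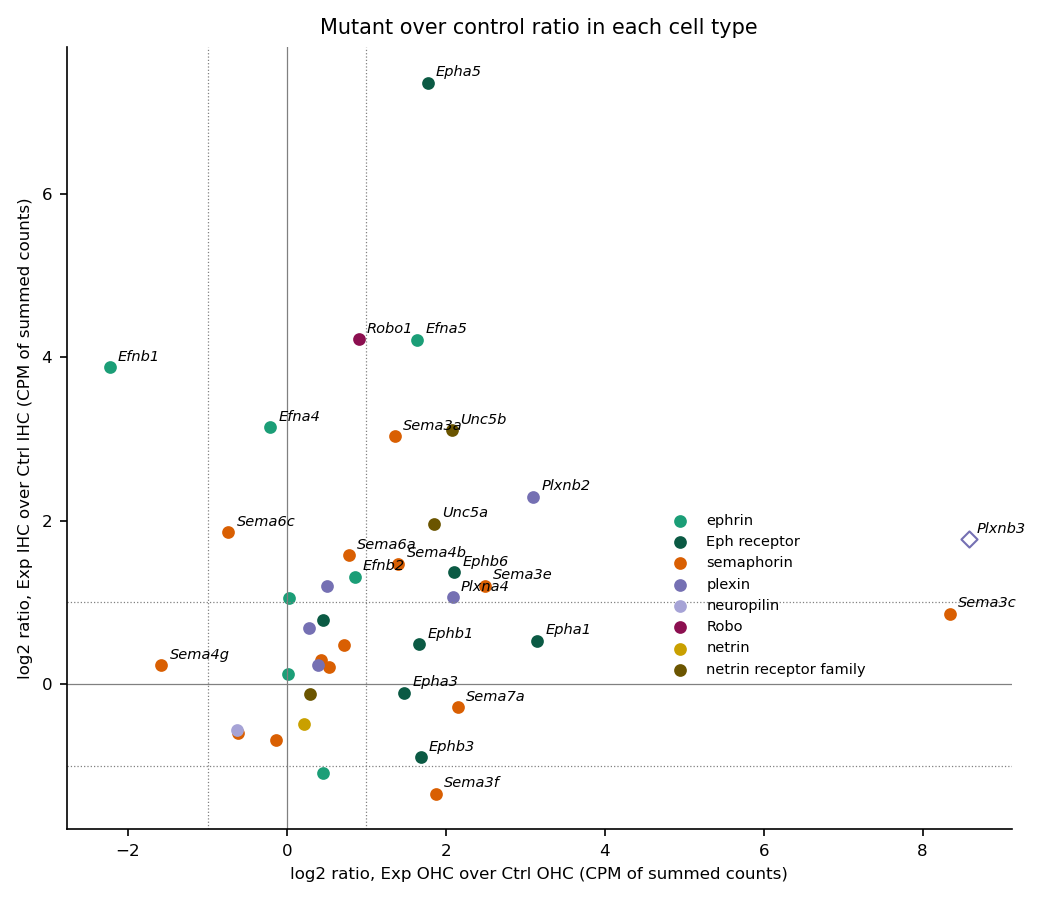
Log2 ratio of Exp over Ctrl in OHCs (horizontal) against IHCs (vertical) for each guidance gene measured in both comparisons, with dotted lines at 2-fold and an open diamond for a bound. Plxnb2 and Sema3a lie in the upper right, Sema3c lies far to the right at 0.86 on the vertical axis, and Efnb1 lies in the upper left.

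Among the ephrins, Efna5 stood out. Efna5 (ENSMUSG00000048915.12, chromosome 17, 62604184 to 62881317, minus strand, GRCm38), a lipid-anchored ephrin-A that repels growing axons, had its lowest, median and highest cell at 2.36, 135 and 512 CPM in Ctrl OHCs, at 0, 0.102 and 0.553 in Ctrl IHCs, at 103, 447 and 946 in Exp OHCs and at 0, 0.182 and 40.8 in Exp IHCs. OHCs and IHCs did not overlap at all within controls or within mutants, and every Exp OHC had the gene, as did 40 of 43 Ctrl OHCs, while 3 of 26 Exp IHCs and 0 of 38 Ctrl IHCs did. The group levels were 153 CPM in Ctrl OHCs, 0.129 in Ctrl IHCs, 475 in Exp OHCs and 2.40 in Exp IHCs. In controls the OHC level was higher by a log2 ratio of 10.21 [9.79 to 10.66], and it was higher again in mutant OHCs (1.64 [1.62 to 1.65]), by 2.15 within male and 1.13 within female cells. The genotype ratio in IHCs was 4.22, but 49.9% of those counts came from 1 cell; without the highest cell of each group it was 3.39, and it was 0.89 in male and 5.70 in female cells.

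The other ephrins were present in a minority of cells, apart from Efnb2 in OHCs. Efnb2, a transmembrane ephrin-B, had its lowest, median and highest cell at 0, 11.0 and 86.0 CPM in Ctrl OHCs, at 0, 0.128 and 42.6 in Ctrl IHCs, at 0, 31.5 and 154 in Exp OHCs and at 0, 5.57 and 107 in Exp IHCs. The ranges of all groups overlapped, and 22 of 43 Ctrl OHCs, 14 of 38 Ctrl IHCs, 41 of 56 Exp OHCs and 11 of 26 Exp IHCs had it. The level was higher in Ctrl OHCs than in Ctrl IHCs (1.31 [1.26 to 1.37]), and higher in Exp IHCs than in Ctrl IHCs (1.31 [1.26 to 1.37]), within male (1.40) and female cells (1.54) alike. Efna3, another ephrin-A, was at 13.3 CPM in Ctrl OHCs, 1.64 in Ctrl IHCs, 18.3 in Exp OHCs and 0.768 in Exp IHCs, and 16 of 43 Ctrl OHCs, 3 of 38 Ctrl IHCs, 22 of 56 Exp OHCs and 1 of 26 Exp IHCs had it. It was an OHC gene in controls (3.03 [2.90 to 3.15]) and had a genotype ratio of 0.46 [0.41 to 0.50] in OHCs, at -1.09 in male and 0.57 in female cells. Its IHC genotype ratio of -1.09 [-1.30 to -0.88] rests on few cells: 1 cell gave 98.6% of the Exp IHC counts, and the ratio was -6.18 with the highest cell of both groups left out and 0.93 in female cells. Efna1 was seen in Ctrl OHCs alone at an appreciable level, 5.76 CPM from 3 of 43 cells, with 1 cell giving 53.9% of the counts. In Exp OHCs it was at 0.00278 CPM, lower by a ratio of -11.02 [-14.07 to -9.17], and the highest cell of that group was at 0.0804 CPM. Efna2, Efna4 and Efnb3 stayed between 0.215 CPM (Efna4 in Ctrl IHCs) and 7.63 CPM (Efna2 in Exp IHCs), each in 8 cells or fewer of any group. In mutant IHCs, Efna4 was higher by 3.15 [2.80 to 3.51], with 99.9% of the Exp IHC counts in 1 cell, and Efnb3 by 1.06 [0.93 to 1.18]. Efnb1, an X-linked ephrin-B, was at 3.87 CPM in Ctrl OHCs, 0.313 in Ctrl IHCs, 0.823 in Exp OHCs and 4.58 in Exp IHCs, and 99.9% of its Exp IHC counts came from 1 cell. The genotype ratio was -2.23 [-2.37 to -2.10] in OHCs and 3.87 [3.59 to 4.17] in IHCs, the latter -5.38 without that cell and the highest control cell.

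Epha4 was the most widely present Eph receptor. Epha4 (ENSMUSG00000026235.14, chromosome 1, 77367185 to 77515088, minus strand), which binds ephrins of both classes, had its lowest, median and highest cell at 0.242, 106 and 324 CPM in Ctrl OHCs, at 0.122, 72.8 and 351 in Ctrl IHCs, at 0.0626, 127 and 523 in Exp OHCs and at 14.7, 153 and 376 in Exp IHCs. The 4 groups overlapped widely, and 40 of 43 Ctrl OHCs, 34 of 38 Ctrl IHCs, 51 of 56 Exp OHCs and 26 of 26 Exp IHCs had it. No comparison over all cells reached 2-fold: the ratio was 0.21 [0.19 to 0.23] between control cell types (1.23 in female cells), 0.45 [0.44 to 0.47] between genotypes in OHCs and 0.78 [0.76 to 0.80] in IHCs, although it was 1.70 in female and 0.19 in male IHCs. Ephb1, a receptor of ephrin-B, came next in the number of cells, with its lowest, median and highest cell at 0, 10.4 and 158 CPM in Ctrl OHCs, at 0, 0.113 and 73.7 in Ctrl IHCs, at 0, 64.8 and 281 in Exp OHCs and at 0, 10.1 and 89.4 in Exp IHCs. The gene was found in 22 of 43 Ctrl OHCs, 16 of 38 Ctrl IHCs, 47 of 56 Exp OHCs and 13 of 26 Exp IHCs, and the Exp OHC median lay above the median of each other group. The OHC genotype ratio was 1.67 [1.64 to 1.70], at 1.91 in male and 1.40 in female cells, against 0.49 [0.44 to 0.54] in IHCs, at 1.06 in male cells.

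Epha5 and Epha7 divided the cell types. Epha5 (ENSMUSG00000029245.16, chromosome 5, 84054761 to 84417382, minus strand), a receptor of ephrin-A, had its lowest, median and highest cell at 0, 0 and 386 CPM in Ctrl OHCs, at 0, 0 and 1.04 in Ctrl IHCs, at 0, 13.5 and 348 in Exp OHCs and at 0, 0 and 78.7 in Exp IHCs. It was found mostly in OHCs: 7 of 43 Ctrl OHCs, 0 of 38 Ctrl IHCs, 31 of 56 Exp OHCs and 4 of 26 Exp IHCs had it. In controls the ratio of OHCs to IHCs was 8.54 [7.70 to 9.54]. The genotype ratio in OHCs was 1.77 [1.73 to 1.82]. It was 2.99 in male cells and -0.09 in female cells, where both genotypes were at nearly the same level. Among Ctrl OHCs, however, 1 cell stood at 386 CPM and the next highest at 50.7. Once the top cell on either side was dropped, the OHC ratio rose to 2.56. Female Ctrl OHCs numbered only 10, and whether their level rested on that 1 cell was not tested. In IHCs the ratio was 7.36 [6.52 to 8.37], from a control level of 0.0316 CPM. Epha7 (ENSMUSG00000028289.12, chromosome 4, 28813131 to 28967499, plus strand), also a receptor of ephrin-A, had its lowest, median and highest cell at 0, 0 and 5.41 CPM in Ctrl OHCs, at 0, 3.00 and 177 in Ctrl IHCs, at 0, 0 and 25.3 in Exp OHCs and at 0, 0 and 154 in Exp IHCs. It was found mostly in IHCs, in 0 of 43 Ctrl OHCs, 17 of 38 Ctrl IHCs, 1 of 56 Exp OHCs and 3 of 26 Exp IHCs. The control ratio of OHCs to IHCs was -7.12 [-7.45 to -6.81]. Its level in mutant IHCs was lower (-1.56 [-1.61 to -1.50]), at -2.90 without the highest cell of each group, since 1 Exp IHC gave 67.6% of the counts, but at -0.06 within male and -3.65 within female cells.

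The remaining Eph receptors were patchy. Epha1 was at 1.83 CPM in Ctrl OHCs, 22.9 in Ctrl IHCs, 16.2 in Exp OHCs and 33.1 in Exp IHCs, with 3 of 43 Ctrl OHCs, 14 of 38 Ctrl IHCs, 14 of 56 Exp OHCs and 10 of 26 Exp IHCs having it and highest cells at 41.4 CPM in Ctrl OHCs, 121 in Ctrl IHCs, 282 in Exp OHCs and 190.1 in Exp IHCs. It was lower in Ctrl OHCs than in Ctrl IHCs (-3.64 [-3.75 to -3.53]) and higher in Exp OHCs than in Ctrl OHCs (3.14 [3.04 to 3.25]), in male (3.38) and female cells (2.27). Its gene overlaps Zyx, which encodes the adhesion protein zyxin on the opposite strand, and Zyx was at 20.6 CPM in Ctrl OHCs, 95.6 in Ctrl IHCs, 102 in Exp OHCs and 135 in Exp IHCs; whether the counting used strand is not given in the sources used here, so reads of this pair cannot be told apart. Ephb4, which prefers ephrin-B2, was seen at an appreciable level in Ctrl OHCs alone, at 8.38 CPM in 6 of 43 cells with a highest cell of 87.3 CPM. It had 0 counts in all 56 Exp OHCs, where it was at least 2012-fold lower. Zan, a gene on the opposite strand that overlaps Ephb4, was likewise highest in Ctrl OHCs (7.70 CPM in Ctrl OHCs, 0.0143 in Ctrl IHCs, 0.00694 in Exp OHCs and 0.00822 in Exp IHCs), so these reads too cannot be assigned to one gene. Ephb6, whose kinase domain is inactive, was at 4.15 CPM in Ctrl OHCs, 4.91 in Ctrl IHCs, 17.9 in Exp OHCs and 12.7 in Exp IHCs, with OHC and IHC genotype ratios of 2.11 [2.03 to 2.18] and 1.37 [1.29 to 1.45], in at most 13 of 56 cells of a group. The OHC ratio was 0.45 in male cells and the IHC ratio 0.66 in female cells, both short of 2-fold. Ephb3 was at 4.82 CPM in Ctrl OHCs, 6.32 in Ctrl IHCs, 15.5 in Exp OHCs and 3.39 in Exp IHCs, and its OHC ratio of 1.68 [1.61 to 1.75] was 0.96 in male and 7.15 in female cells. Epha3 was at 2.2 CPM in Ctrl OHCs, 4.97 in Ctrl IHCs, 6.12 in Exp OHCs and 4.62 in Exp IHCs, in 4 of 43 Ctrl OHCs, 7 of 38 Ctrl IHCs, 6 of 56 Exp OHCs and 5 of 26 Exp IHCs, and its OHC ratio of 1.47 [1.37 to 1.58] was 0.40 in female cells. Epha2 reached 7.17 CPM in Exp IHCs from 2 cells and had 0 counts in Ctrl IHCs and Ctrl OHCs. Epha8 and Ephb2 stayed at or under 2.44 CPM in every group, the level of Ephb2 in Exp OHCs.

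**Figure D4:**
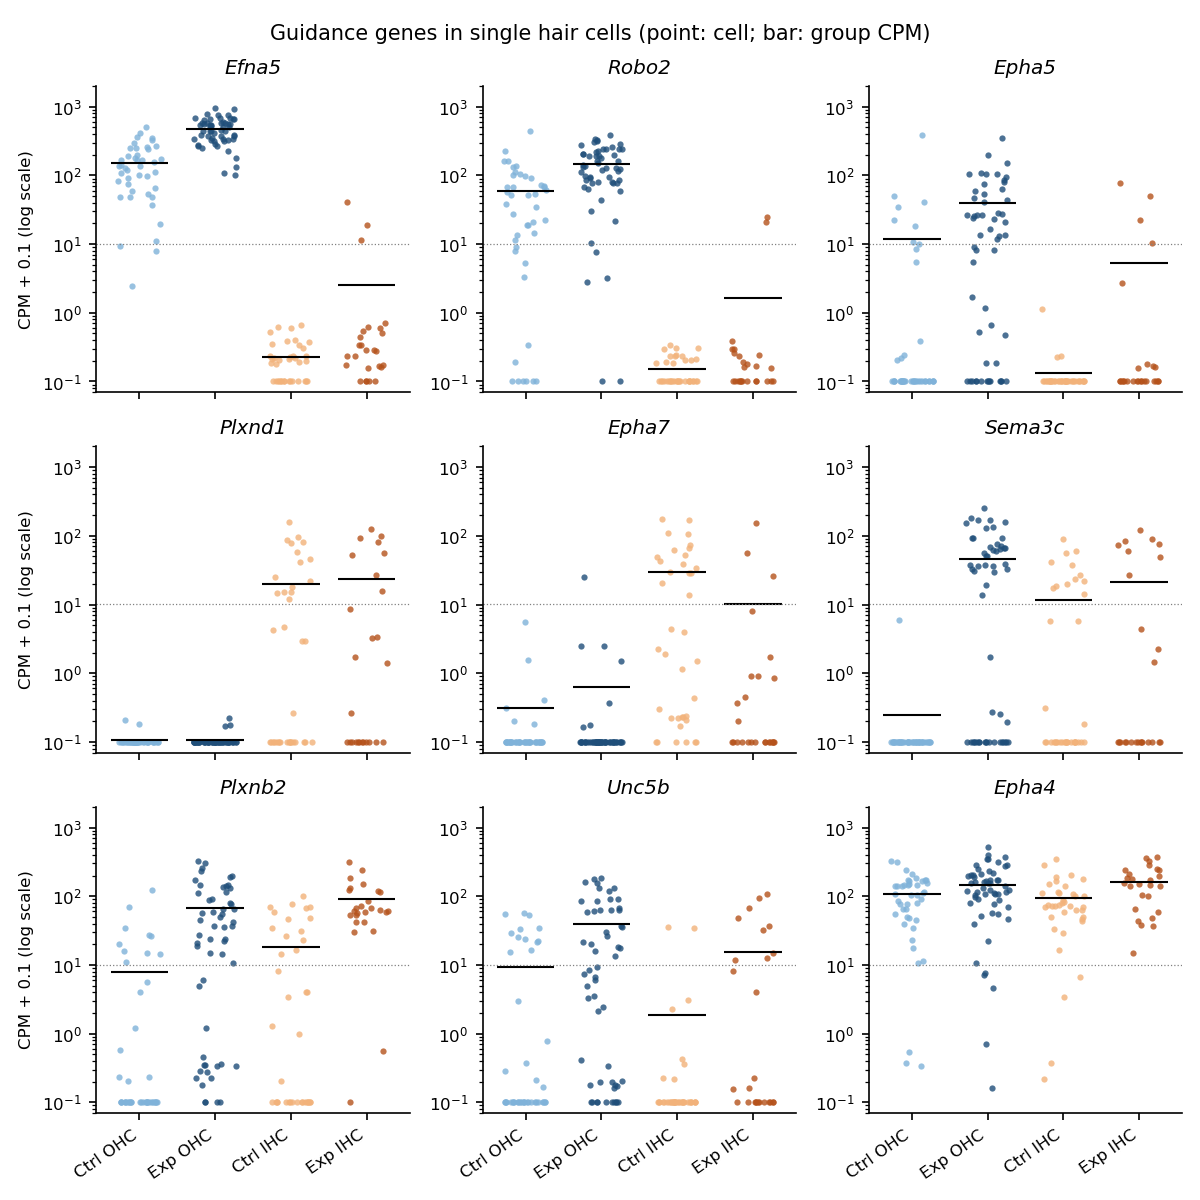
Level in every cell of 9 guidance genes, in CPM with 0.1 added on a log axis, in the 4 groups, with a dotted line at 10 CPM and a bar at the group CPM. Efna5 and Robo2 are at 10 CPM or more in most OHCs and in at most 3 cells of an IHC group, Plxnd1 and Epha7 lie above 10 CPM almost only in IHCs, Sema3c lies above 10 CPM in 33 of 56 Exp OHCs and 0 of 43 Ctrl OHCs, and Epha4 overlaps in all groups.

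Of the secreted semaphorins, Sema3c, Sema3e and Sema3a were the ones present in many cells. Sema3c (ENSMUSG00000028780.13, chromosome 5, 17574281 to 17730268, plus strand), which signals through either neuropilin, had its lowest, median and highest cell at 0, 0 and 5.78 CPM in Ctrl OHCs, at 0, 0 and 89.8 in Ctrl IHCs, at 0, 32.5 and 253 in Exp OHCs and at 0, 0 and 122 in Exp IHCs. No Ctrl OHC reached 10 CPM, and all of that group's counts came from 1 cell, whereas 33 of 56 Exp OHCs had it (58.9%, 45.0% to 71.9%, exact binomial 95% interval); a share of 0 of 43 cells allows up to 6.98%. The group levels were 0.143 CPM in Ctrl OHCs, 11.7 in Ctrl IHCs, 46.2 in Exp OHCs and 21.2 in Exp IHCs. The OHC genotype ratio was 8.34 [7.97 to 8.74], and 7.76 in male cells. Female Ctrl OHCs, and Ctrl OHCs without their highest cell, had 0 counts, so these settings give bounds of at least 10.12 and at least 12.47. In IHCs the ratio was 0.86 [0.81 to 0.92], short of 2-fold, so the level of mutant OHCs was above that of both IHC groups while that of control OHCs was below. Sema3e, which binds plexin D1 without a neuropilin, had its lowest, median and highest cell at 0, 0 and 28.0 CPM in Ctrl OHCs, at 0, 12.8 and 142 in Ctrl IHCs, at 0, 0.166 and 119.7 in Exp OHCs and at 0, 29.9 and 190.5 in Exp IHCs. It was an IHC gene in controls, present in 6 of 43 Ctrl OHCs, 21 of 38 Ctrl IHCs, 18 of 56 Exp OHCs and 16 of 26 Exp IHCs, with a control ratio of OHCs to IHCs of -2.65 [-2.74 to -2.56]. It was higher in mutants in OHCs (2.49 [2.40 to 2.57]), at 2.19 in male and 9.07 in female cells, and in IHCs (1.20 [1.16 to 1.24]), at 0.86 in male and 3.09 in female IHCs. The female ratio in OHCs rests on 10 female Ctrl OHCs.

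Sema3a, the classic repellent of sensory axons through neuropilin 1, was at 10.6 CPM in Ctrl OHCs, 3.77 in Ctrl IHCs, 27.1 in Exp OHCs and 30.8 in Exp IHCs. Cells that had it were 9 of 43 Ctrl OHCs, 4 of 38 Ctrl IHCs, 21 of 56 Exp OHCs and 9 of 26 Exp IHCs, with highest cells at 105 CPM in Ctrl OHCs, 65.2 in Ctrl IHCs, 210.1 in Exp OHCs and 229.7 in Exp IHCs, and the median cell of each group was under 1 CPM. The genotype ratio was 3.03 [2.95 to 3.11] in IHCs, at 2.96 in male and 3.54 in female cells. In OHCs it was 1.35 [1.31 to 1.40], at 2.40 in male and -0.15 in female cells. Nrp1, the neuropilin that Sema3a needs, was under 1 CPM in every group. Sema3f, the neuropilin 2 ligand, was sparse, at 1.66 CPM in Ctrl OHCs, 2.61 in Ctrl IHCs, 6.08 in Exp OHCs and 1.03 in Exp IHCs and in 1 of 43 Ctrl OHCs, 2 of 38 Ctrl IHCs, 6 of 56 Exp OHCs and 1 of 26 Exp IHCs. Its OHC ratio of 1.87 [1.75 to 1.99] and its IHC ratio of -1.34 [-1.52 to -1.17] had opposite signs, but 1 cell gave 92.3% of the Ctrl OHC counts and 1 cell 98.9% of the Exp IHC counts; with the highest cell of both groups left out, the ratios were 4.75 and -6.80. Sema3b was present in 1 cell of each group.

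Sema5b was the highest of the semaphorins per kilobase. Sema5b (ENSMUSG00000052133.16, chromosome 16, 35541145 to 35664732, plus strand), a transmembrane protein with thrombospondin repeats, had its lowest, median and highest cell at 0.190, 182 and 686 CPM in Ctrl OHCs, at 6.02, 271 and 412 in Ctrl IHCs, at 37.7, 202 and 1102 in Exp OHCs and at 110.5, 347 and 660.0 in Exp IHCs. The groups overlapped, and it was present in 38 of 43 Ctrl OHCs, 37 of 38 Ctrl IHCs, 56 of 56 Exp OHCs and 26 of 26 Exp IHCs. Its ratios stayed within 2-fold: -0.42 [-0.43 to -0.40] between control cell types, 0.43 [0.42 to 0.44] between genotypes in OHCs and 0.29 [0.28 to 0.31] in IHCs. Sema6b, a transmembrane class 6 semaphorin that binds A-type plexins, was also found in all groups, with its lowest, median and highest cell at 0, 9.80 and 111 CPM in Ctrl OHCs, at 0, 36.7 and 109 in Ctrl IHCs, at 0, 22.9 and 163 in Exp OHCs and at 0, 44.7 and 142 in Exp IHCs. It was present in 20 of 43 Ctrl OHCs, 28 of 38 Ctrl IHCs, 39 of 56 Exp OHCs and 24 of 26 Exp IHCs, and its 3 ratios also stayed within 2-fold, between -0.68 and 0.72. Sema6a, of the same class, was at 21.3 CPM in Ctrl OHCs, 8.31 in Ctrl IHCs, 36.4 in Exp OHCs and 24.8 in Exp IHCs, in 18 of 43 Ctrl OHCs, 8 of 38 Ctrl IHCs, 35 of 56 Exp OHCs and 12 of 26 Exp IHCs. It was higher in Exp IHCs than in Ctrl IHCs (1.58 [1.52 to 1.64]), at 2.39 in male and 0.73 in female cells, and in OHCs the ratio was 0.78 [0.74 to 0.81], at 1.00 in male and 2.45 in female cells. In controls it was higher in OHCs (1.36 [1.29 to 1.42]), but at -1.18 in female cells.

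The class 4 semaphorins, ligands of B-type plexins among other receptors, were found in a minority of cells. Sema4d was in the most cells, at 18.6 CPM in Ctrl OHCs, 6.13 in Ctrl IHCs, 12.1 in Exp OHCs and 4.04 in Exp IHCs, in 16 of 43 Ctrl OHCs, 8 of 38 Ctrl IHCs, 13 of 56 Exp OHCs and 2 of 26 Exp IHCs; it was higher in Ctrl OHCs than in Ctrl IHCs (1.61 [1.54 to 1.68]), at 0.14 in female cells. Sema4b was at 1.97 CPM in Ctrl OHCs, 2.05 in Ctrl IHCs, 5.19 in Exp OHCs and 5.69 in Exp IHCs, and it was above 2-fold between genotypes in both cell types (1.40 [1.29 to 1.51] in OHCs and 1.47 [1.35 to 1.60] in IHCs), although 3 of 43 Ctrl OHCs, 2 of 38 Ctrl IHCs, 5 of 56 Exp OHCs and 4 of 26 Exp IHCs had it and 1 Exp OHC gave 41.4% of the counts. Within male OHCs its ratio was 0.67. Sema4f reached 6.28 CPM in Exp OHCs from 3 of 56 cells, and its OHC ratio of 1.58 [1.47 to 1.69] was at most -6.83 in male cells, where Exp OHCs had 0 counts. Sema4c, Sema4g, Sema6c and Sema7a, a lipid-anchored semaphorin, were at or under 7.24 CPM, the level of Sema4c in Ctrl IHCs. Of these, Sema7a was higher (2.15 [1.91 to 2.40]) and Sema4g lower (-1.58 [-1.72 to -1.44]) in mutant OHCs, and Sema6c was higher in mutant IHCs (1.86 [1.67 to 2.05]), in 5 cells or fewer of any group each. Sema6d was at 15.5 CPM in Ctrl OHCs, 9.32 in Ctrl IHCs, 22.3 in Exp OHCs and 10.8 in Exp IHCs, within 2-fold in each of the genotype and control comparisons. Sema4a reached 1.86 CPM in Exp OHCs, from 2 cells.

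Of the receptors, plexin B2 was the one that stood higher in mutants of both cell types under every alternative other than the filters. Plxnb2 (ENSMUSG00000036606.17, chromosome 15, 89155549 to 89180788, minus strand), a receptor of class 4 semaphorins, had its lowest, median and highest cell at 0, 0 and 124 CPM in Ctrl OHCs, at 0, 1.03 and 99.7 in Ctrl IHCs, at 0, 36.2 and 322 in Exp OHCs and at 0, 61.8 and 316 in Exp IHCs. The median of both mutant groups was at 36.2 CPM or more and that of both control groups at 1.03 or less, although the ranges overlapped. It was present in 10 of 43 Ctrl OHCs (23.3%, 11.8% to 38.6%), 38 of 56 Exp OHCs (67.9%, 54.0% to 79.7%), 14 of 38 Ctrl IHCs (36.8%, 21.8% to 54.0%) and 24 of 26 Exp IHCs (92.3%, 74.9% to 99.1%). The genotype ratio was 3.10 [3.05 to 3.15] in OHCs, at 2.51 in male and 3.32 in female cells. In IHCs it was 2.29 [2.26 to 2.33], at 1.84 and 2.35. Plxnb1, its relative and the main Sema4d receptor, was at 30.1 CPM in Ctrl OHCs, 16.0 in Ctrl IHCs, 42.4 in Exp OHCs and 36.5 in Exp IHCs, in 23 of 43 Ctrl OHCs, 16 of 38 Ctrl IHCs, 30 of 56 Exp OHCs and 10 of 26 Exp IHCs. Its ratio was 0.50 [0.47 to 0.53] in OHCs and 1.19 [1.15 to 1.24] in IHCs, the latter at 0.66 in male and 3.33 in female cells. Plxnb3, an X-linked plexin, was at 0 CPM in Ctrl OHCs, 2.58 in Ctrl IHCs, 2.87 in Exp OHCs and 8.81 in Exp IHCs; it had 0 counts in Ctrl OHCs and 1 Exp OHC gave nearly all counts of its group, while in IHCs the genotype ratio was 1.77 [1.67 to 1.88].

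Plexin D1 had the largest ratio toward IHCs in controls. Plxnd1 (ENSMUSG00000030123.15, chromosome 6, 115954811 to 115995005, minus strand), the receptor of Sema3e, had its lowest, median and highest cell at 0, 0 and 0.111 CPM in Ctrl OHCs, at 0, 1.50 and 158 in Ctrl IHCs, at 0, 0 and 0.127 in Exp OHCs and at 0, 0.733 and 127 in Exp IHCs. No OHC of either genotype had the gene, whereas 15 of 38 Ctrl IHCs and 8 of 26 Exp IHCs did. The control ratio of OHCs to IHCs was -11.97 [-15.02 to -10.12], and the genotype ratio in IHCs was 0.23 [0.18 to 0.27]. Of the A-type plexins, which pair with neuropilins or bind class 6 semaphorins directly, Plxna1 and Plxna2 were found in the most cells. Plxna1 was at 39.3 CPM in Ctrl OHCs, 18.1 in Ctrl IHCs, 47.6 in Exp OHCs and 29.1 in Exp IHCs and Plxna2 at 44.0 CPM in Ctrl OHCs, 16.8 in Ctrl IHCs, 57.8 in Exp OHCs and 19.7 in Exp IHCs. Both were higher in Ctrl OHCs than in Ctrl IHCs (1.12 [1.07 to 1.16] and 1.39 [1.34 to 1.43]), Plxna1 at 0.66 in male cells, and within 2-fold between genotypes in both cell types over all cells. In male OHCs the genotype ratio of Plxna2 was 1.14, and in female IHCs that of Plxna1 was 1.09. Plxna4 was at 6.02 CPM in Ctrl OHCs, 4.09 in Ctrl IHCs, 25.6 in Exp OHCs and 8.57 in Exp IHCs, in 8 of 43 Ctrl OHCs, 3 of 38 Ctrl IHCs, 20 of 56 Exp OHCs and 3 of 26 Exp IHCs. It was higher in Exp OHCs (2.09 [2.02 to 2.15]), in male (2.29) and female cells (1.74). Its IHC ratio of 1.07 [0.98 to 1.16] was -0.83 in male cells, and 1 cell gave 66.9% of the Ctrl IHC and 1 cell 65.8% of the Exp IHC counts. Plxna3 was at or under 2.94 CPM.

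Neuropilin 2 was present in most cells of every group. Nrp2, the receptor of Sema3f and Sema3c, had its lowest, median and highest cell at 0.0941, 129.6 and 393 CPM in Ctrl OHCs, at 0, 82.4 and 338 in Ctrl IHCs, at 0, 76.9 and 313 in Exp OHCs and at 0.640, 59.9 and 198 in Exp IHCs. The groups overlapped, and 41 of 43 Ctrl OHCs, 36 of 38 Ctrl IHCs, 45 of 56 Exp OHCs and 20 of 26 Exp IHCs had it. Its level was lower in mutants, at ratios of -0.63 [-0.65 to -0.61] in OHCs and -0.57 [-0.59 to -0.55] in IHCs, both short of 2-fold. Within male cells the ratios were -0.30 and 0.01, and within female cells -0.94 and -1.28, the last of which passed 2-fold. Nrp2 overlaps Gm37121, a gene model on the same strand that was at 10.4 CPM in Ctrl OHCs, 6.34 in Ctrl IHCs, 1.58 in Exp OHCs and 1.29 in Exp IHCs.

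The Robo receptors were OHC genes in controls. Robo2 (ENSMUSG00000052516.19, chromosome 16, 73891839 to 74411825, minus strand), a repulsive receptor of the Slits, had its lowest, median and highest cell at 0, 38.1 and 437 CPM in Ctrl OHCs, at 0, 0 and 0.242 in Ctrl IHCs, at 0, 127 and 381 in Exp OHCs and at 0, 0.0296 and 24.7 in Exp IHCs. It was present in 31 of 43 Ctrl OHCs, 0 of 38 Ctrl IHCs, 51 of 56 Exp OHCs and 2 of 26 Exp IHCs. The ranges overlapped only between 0 and 24.7 CPM, the highest Exp IHC. In controls the OHC to IHC ratio was 10.09 [9.45 to 10.82], and mutant OHCs were higher (1.29 [1.27 to 1.31]), at 1.53 in male and 0.96 in female cells, the latter just short of 2-fold. Its paralog Robo1 was at 8.85 CPM in Ctrl OHCs, 0.775 in Ctrl IHCs, 16.5 in Exp OHCs and 14.5 in Exp IHCs, in 14 of 43 Ctrl OHCs, 1 of 38 Ctrl IHCs, 18 of 56 Exp OHCs and 7 of 26 Exp IHCs, with highest cells at 44.3 CPM in Ctrl OHCs, 11.8 in Ctrl IHCs, 152 in Exp OHCs and 79.2 in Exp IHCs. It was higher in Ctrl OHCs than in Ctrl IHCs (3.51 [3.34 to 3.70]). Between genotypes the ratio was 4.22 [4.04 to 4.40] in IHCs, at 2.58 in male and 4.45 in female cells, and 0.90 [0.85 to 0.96] in OHCs, at 1.18 in male and 0.65 in female cells. Of the ligands, Slit1 and Slit2 were under 1 CPM in every group. Slit3 was at 4.78 CPM in Ctrl OHCs, 0.00574 in Ctrl IHCs, 0.627 in Exp OHCs and 1.40 in Exp IHCs, in 7 of 43 Ctrl OHCs, 0 of 38 Ctrl IHCs, 1 of 56 Exp OHCs and 1 of 26 Exp IHCs. Its OHC genotype ratio of -2.93 [-3.08 to -2.78] was 0.04 in male and -6.55 in female cells.

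Of the netrin receptors, Unc5a and Unc5b were present in many cells, while Dcc stayed under 1 CPM. Unc5a, a repulsive netrin receptor, had its lowest, median and highest cell at 0, 0 and 177 CPM in Ctrl OHCs, at 0, 0.247 and 71.8 in Ctrl IHCs, at 0, 0.125 and 367 in Exp OHCs and at 0, 25.6 and 189 in Exp IHCs. In all, 6 of 43 Ctrl OHCs, 10 of 38 Ctrl IHCs, 16 of 56 Exp OHCs and 15 of 26 Exp IHCs had it, most often in mutant IHCs, and the groups overlapped. The genotype ratio was 1.85 [1.80 to 1.91] in OHCs, at 2.2 in male and 0.74 in female cells, and 1.96 [1.91 to 2.01] in IHCs, at 2.09 and 1.97. Unc5b, which also binds Flrt proteins, had its lowest, median and highest cell at 0, 0 and 57.1 CPM in Ctrl OHCs, at 0, 0 and 36.0 in Ctrl IHCs, at 0, 8.80 and 184 in Exp OHCs and at 0, 0.0597 and 107 in Exp IHCs. It was present in 12 of 43 Ctrl OHCs, 2 of 38 Ctrl IHCs, 27 of 56 Exp OHCs and 9 of 26 Exp IHCs, and was higher in Ctrl OHCs than in Ctrl IHCs (2.36 [2.23 to 2.48]) and in Exp OHCs than in Ctrl OHCs (2.08 [2.03 to 2.13]), in male (2.41) and female cells (1.63). The IHC genotype ratio of 3.11 [2.99 to 3.23] was -0.66 in male and 6.52 in female cells. Unc5cl was at 5.09 CPM in Ctrl OHCs, 0.362 in Ctrl IHCs, 1.32 in Exp OHCs and 0 in Exp IHCs, higher in Ctrl OHCs than in Ctrl IHCs (3.82 [3.56 to 4.09]) and lower in Exp OHCs (-1.94 [-2.06 to -1.83]), in 6 cells or fewer of any group. Unc5c did not pass 1.04 CPM. Unc50, the Golgi protein, was at 113 CPM in Ctrl OHCs, 131 in Ctrl IHCs, 139 in Exp OHCs and 119.8 in Exp IHCs, within 2-fold throughout.

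The netrins themselves were low. Ntn1, the ligand of Dcc and the Unc5 receptors, was highest in Exp OHCs at 1.07 CPM, Ntn3 in Exp IHCs at 2.92 and Ntn4 in Exp IHCs at 2.51, from 2 cells or fewer each. The netrin-G genes encode lipid-anchored relatives that bind other partners. Ntng2 was at 7.28 CPM in Ctrl OHCs, 12.7 in Ctrl IHCs, 8.48 in Exp OHCs and 8.99 in Exp IHCs, in 10 of 43 Ctrl OHCs, 17 of 38 Ctrl IHCs, 14 of 56 Exp OHCs and 10 of 26 Exp IHCs, within 2-fold in each of these comparisons. Ntng1 was found in Exp IHCs alone, at 4.84 CPM in 5 of 26 cells, with the highest cell at 47.4 CPM and 0 counts in the 3 other groups. Its IHC ratio is at least 562-fold.

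Single hair cells carried several of these genes at once. The number at 10 CPM or more had a median of 14 per cell in Ctrl OHCs, from 8 to 21, of 12 in Ctrl IHCs, from 8 to 19, of 17 in Exp OHCs, from 5 to 27, and of 16 in Exp IHCs, from 7 to 22. The ranges overlapped, and thinning each cell to 5000000 counts gave the same medians. Some known ligands and receptors were present together in the same cell, and others rarely. Efna5 and Epha4 were both present in 37 of 43 Ctrl OHCs, 0 of 38 Ctrl IHCs, 51 of 56 Exp OHCs and 3 of 26 Exp IHCs. Efna5 and Epha5 were both present in 6 of 43 Ctrl OHCs, 0 of 38 Ctrl IHCs, 31 of 56 Exp OHCs and 1 of 26 Exp IHCs. Sema3c with its receptor Nrp2 was found in 0 of 43 Ctrl OHCs, 12 of 38 Ctrl IHCs, 30 of 56 Exp OHCs and 7 of 26 Exp IHCs. Sema3e with Plxnd1 was found in 0 of 43 Ctrl OHCs, 9 of 38 Ctrl IHCs, 0 of 56 Exp OHCs and 5 of 26 Exp IHCs. No OHC had Plxnd1, so this pair could be found in IHCs only. Sema5b with Plxna1 was found in 27 of 43 Ctrl OHCs, 18 of 38 Ctrl IHCs, 37 of 56 Exp OHCs and 16 of 26 Exp IHCs, and Efnb2 with Ephb1 in 14 of 43 Ctrl OHCs, 8 of 38 Ctrl IHCs, 35 of 56 Exp OHCs and 4 of 26 Exp IHCs. Sema6a was present with Plxna2 in 11 of 43 Ctrl OHCs, 2 of 38 Ctrl IHCs, 22 of 56 Exp OHCs and 3 of 26 Exp IHCs, and with Plxna4 in 4 of 43 Ctrl OHCs, 0 of 38 Ctrl IHCs, 12 of 56 Exp OHCs and 0 of 26 Exp IHCs. Sema4c with Plxnb2 was found in 3 of 43 Ctrl OHCs, 1 of 38 Ctrl IHCs, 6 of 56 Exp OHCs and 4 of 26 Exp IHCs, and Sema4d with Plxnb1 in 8 of 43 Ctrl OHCs, 1 of 38 Ctrl IHCs, 8 of 56 Exp OHCs and 0 of 26 Exp IHCs. Each pair is limited by the rarer of its genes, and nothing was measured on binding. Whether a pair was found together more often than its separate shares would give was not tested.

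**Figure D5:**
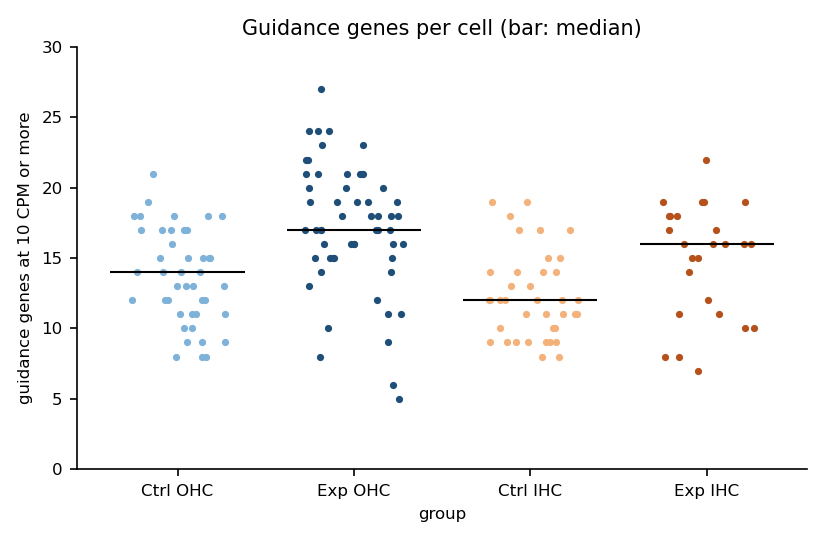
Number of the 73 guidance genes at 10 CPM or more in each cell, by group, with a bar at the median. The medians are 14 in Ctrl OHCs, 12 in Ctrl IHCs, 17 in Exp OHCs and 16 in Exp IHCs, and the ranges overlap.

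Genes that act downstream of, or beside, these receptors were taken from lists set by role. Of 53 signal transduction genes, 49 were measured in OHCs, with 9 higher and 9 lower in mutants (18.4% each), and 46 in IHCs, with 10 higher and 5 lower (21.7% and 10.9%). Of all genes, 18.4% were higher and 13.1% lower in mutant OHCs, and 18.8% and 11.7% in mutant IHCs, so the shares of higher genes in this list were close to those of all genes. Of 33 co-receptors and other cues, 24 were measured in OHCs, with 7 higher and 2 lower (29.2% and 8.33%), and 22 in IHCs, with 7 higher and 2 lower (31.8% and 9.09%). Mical2, a flavin monooxygenase that acts on actin, was at 43.4 CPM in Ctrl OHCs, 1.38 in Ctrl IHCs, 0.240 in Exp OHCs and 0.112 in Exp IHCs. Its ratio was -7.50 in OHCs and -3.62 in IHCs, where its mean level was under the limit for a measured gene. Only 2 of 38 Ctrl IHCs and 0 of 26 Exp IHCs had it. Ablim1, an actin-binding LIM protein, was higher in mutants, at 23.7 CPM in Ctrl OHCs, 7.95 in Ctrl IHCs, 164 in Exp OHCs and 101 in Exp IHCs. Gap43, a growth cone protein, was at 0 CPM in Ctrl OHCs, 2.37 in Ctrl IHCs, 25.7 in Exp OHCs and 41.6 in Exp IHCs, and 20 of 56 Exp OHCs and 14 of 26 Exp IHCs had it, against 0 of 43 Ctrl OHCs and 4 of 38 Ctrl IHCs. Flrt1 and Flrt3, membrane proteins that bind Unc5 receptors, were higher in mutants of both types: Flrt1 was at 3.84 CPM in Ctrl OHCs, 5.95 in Ctrl IHCs, 50.2 in Exp OHCs and 39.7 in Exp IHCs, and Flrt3 at 6.46 CPM in Ctrl OHCs, 3.23 in Ctrl IHCs, 36.6 in Exp OHCs and 27.9 in Exp IHCs. The cell adhesion protein Cntn1 was at 1.31 CPM in Ctrl OHCs, 0.241 in Ctrl IHCs, 46.1 in Exp OHCs and 1.97 in Exp IHCs. Nell2, a secreted ligand of Robo3, was at 7.19 CPM in Ctrl OHCs, 2.51 in Ctrl IHCs, 17.7 in Exp OHCs and 30.2 in Exp IHCs. Robo3 itself was under 1 CPM in every group.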

How the data were processed

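Full-length cDNA of single hair cells was sequenced, and the authors deposited raw read counts per gene and cell. The submitters' processing notes name the aligner HISAT2 2.2.1, the counter featureCounts 2.0.1, SAMtools and the mm10 build. Which annotation was used, whether strand was used and how reads in overlapping genes were treated is not given in the sources used here. Of the gene identifiers, 55034 (99.5%) matched GENCODE M21 on GRCm38, the same build; the other 257 held 0.0128% of the counts. Counts were summed per group and scaled to CPM with Python 3.11.15, pandas 2.3.3, NumPy 2.4.6 and SciPy 1.17.1, and figures were drawn with matplotlib 3.10.9. Levels have an exact Poisson and shares an exact binomial (Clopper-Pearson) 95% interval. For Ctrl OHCs and IHCs the floor of 3 counts equals 0.00751 and 0.00861 CPM, and for Exp OHCs and IHCs 0.00416 and 0.00822 CPM. The ratio script was tested on simulated data. No 2 cells had identical counts. The alternatives were other scaling factors (edgeR 4.0.16 TMM and DESeq2 1.42.0 median-of-ratios, in R 4.3.3), the mean of single-cell CPM, other filters on level, and subsets of cells: without the highest cell of each group, male or female, low or high in Gm15772 (a processed pseudogene whose level divides the cells of each group at 40 CPM in a way no label names; the cells low in it were all male, 16 of 16 male Exp OHCs, 7 of 7 male Exp IHCs, 25 of 32 male Ctrl OHCs and 23 of 26 male Ctrl IHCs, so these settings are not separate checks), without 2 control cells that go against their label, and without cells carrying supporting cell transcripts. Full values are given for genes at 5 CPM or more and 2-fold between genotypes, for the 10 highest per kilobase, and for genes at 5 CPM or more and 4-fold between control cell types; other guidance genes are named at 20 CPM or more and 4-fold between genotypes, and 1 that met this rule is not reported here. The genes and lists were chosen with earlier results of these data known. Besides the 73 genes, 3 noncoding matches of the symbol rule were left out.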

Additional observations from a re-analysis of the deposited data

Results flagged for a closer look

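For 2 genes the genotype ratio had opposite signs in OHCs and IHCs, with at least 2-fold in each; the difference was not tested. Efnb1 was lower in mutant OHCs and higher in mutant IHCs, and the OHC log2 ratio less the IHC log2 ratio came to -6.11; 99.9% of its Exp IHC counts came from 1 cell. Sema3f was higher in mutant OHCs and lower in mutant IHCs, a difference of 3.21, with 98.9% of its Exp IHC counts and 92.3% of its Ctrl OHC counts in 1 cell each.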

How the results depend on the processing

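No paired analysis was possible because replicate numbers only number the cells of a group and the results come from no test. Counts of genes past 2-fold that moved by over 1.5 times are given with their share of the genes measured, against the share of all genes under the same setting. With no filter on level, 14 (22.6% against 24.6%) were lower in mutant IHCs (3 with the filter) and 15 (24.6% against 22.6%) lower in Ctrl OHCs than in Ctrl IHCs (8 with it). At a mean of 5 CPM, 0 (0% against 8.78%) were lower in mutant OHCs, where 6 otherwise were. In mutant IHCs, 12 (41.4% against 13.3%) were then higher and 1 (3.45% against 7.17%) lower, where 24 and 3 otherwise were. In Ctrl OHCs against Ctrl IHCs 11 (35.5% against 10.6%) were higher, where 20 otherwise were, and in Exp OHCs against Exp IHCs 5 (14.3% against 8.97%) were lower, where 14 otherwise were and 8 (19.0% against 10.7%) were without the highest cell of each group. In male cells, 15 (36.6% against 24.7%) were higher in mutant IHCs. In female cells, 9 (19.6% against 18.2%) were lower in mutant IHCs and 16 (33.3% against 20.5%) in Ctrl OHCs than in Ctrl IHCs. In cells low in Gm15772, 5 (11.9% against 18.5%) were lower in mutant IHCs. In cells high in it, 10 (20.8% against 17.9%) were lower in mutant OHCs, 6 (13.6% against 18.1%) in mutant IHCs and 13 (27.1% against 16.0%) in Ctrl OHCs against Ctrl IHCs. Without cells carrying supporting cell transcripts, a setting chosen after seeing the data, 1 (2.17% against 11.5%) was lower in mutant IHCs. The median number of genes per cell at a limit of 1 CPM was 17 in Ctrl OHCs, 15.5 in Ctrl IHCs, 21 in Exp OHCs and 19 in Exp IHCs, and at 1 count 21, 20, 25.5 and 27. Directions reversed for several genes, sparse ones but also Epha5, Sema3a, Sema6a and Unc5b, which were present in many cells of at least 1 group. Without the highest cell, the IHC genotype ratio of Efnb1 was -5.38, and the ratios of Exp OHCs to Exp IHCs were 6.97 for Efnb1 and 3.05 for Slit3. In male cells they reversed for Efnb1 (at most -3.84), Plxna4 (-0.83) and Unc5b (-0.66) between IHC genotypes, and for Sema4f (at most -6.83) and Slit3 (0.0402) between OHC genotypes. In cells low in Gm15772 the same ratios were at most -2.55, -0.997, -0.77, at most -3.54 and 1.03. In female cells they reversed between OHC genotypes for Epha5 (-0.092) and Sema3a (-0.15), between IHC genotypes for Efna3 (0.93), between control types for Sema6a (-1.18) and between Exp types for Slit3 (at least 4.00). In cells high in Gm15772 they did so for Efna3 (1.29), Sema6a (-0.12), Slit3 (at least 3.89) and, between control types, Epha3 (0.51). Without the cells that carry supporting cell transcripts, Efna3 was at 0.30. The cause was not tested. Other scaling factors reversed 0 of 92 ratios, but all of these were at least 2-fold over all cells. The TMM factors lay between 0.971 and 1.03, and the DESeq2 factors moved the group totals about as little. No such ratio could reverse under them. Without the highest cell of each group, 72 of the ratios left their counting interval or, for a bound, moved by over 1.5 times, and 3 reversed. In female cells 79 did so and 5 reversed. A depth of 3 counts over a group sets the lower limit of every ratio against 0.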
